A study of Mus musculus with 48 samples.

Results

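Transcription factors that tell the layers of the cerebral cortex apart were followed in the cortex of WT and Chd8 V986*/+ mice. The members are Tbr1, Foxp2, Tle4, Sox5, Fezf2, Bcl11b, Rorb, Cux1 and Cux2, taken by gene symbol as 9 of the 24444 genes in the table of expression values, in all 48 samples. RNA-seq was performed on dissected cortex of C57BL/6J male mice, 1 hemisphere per mouse, with 12 samples per age, of which 6 were WT and 6 Chd8 V986*/+. The ages were E14.5 and 1, 6 and 12 months. The V986* allele carries stop codons inserted with CRISPR/Cas9 into Chd8, which encodes a chromatin remodeler, and came from 1 male founder that was backcrossed to C57BL/6J. The mutant mice were heterozygous, and the WT mice were littermates without the allele.

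The neurons of the cortex are born from progenitors in an inside-out order, so that deep-layer neurons precede those of the upper layers. Tbr1, Sox5, Fezf2 and Bcl11b are known to act in young deep-layer neurons and to hold the corticothalamic and subcerebral projection fates apart, whereas Cux1 and Cux2 mark upper-layer neurons and Rorb marks layer 4. Several members are not confined to cortical projection neurons, since Foxp2 and Bcl11b are also expressed by striatal medium spiny neurons and Bcl11b by interneurons.

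The region upstream of the start of transcription is shown for 1 member of each layer, because Tbr1 and Fezf2 fell and Rorb and Cux2 rose from E14.5 to 1 month. RefSeq (GRCm38.p6) held a promoter for 8 of the 9 members, with 11 starts in all, and the 250 bases before the start are printed 5′ to 3′ on the strand of the gene. Capitals mark the motifs searched on both strands, and positions are Tbr1 chr2:61804203-61804452 (plus), Fezf2 chr14:12345866-12346115 (minus), Rorb chr19:19111197-19111446 (minus) and Cux2 chr5:122049852-122050101 (minus), with a second Cux2 start at chr5:122047826-122048075 (minus).
Tbr1: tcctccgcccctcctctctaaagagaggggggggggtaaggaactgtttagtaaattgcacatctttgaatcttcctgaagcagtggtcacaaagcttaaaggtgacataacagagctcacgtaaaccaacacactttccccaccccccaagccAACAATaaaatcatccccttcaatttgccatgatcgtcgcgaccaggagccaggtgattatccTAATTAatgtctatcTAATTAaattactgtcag
Fezf2: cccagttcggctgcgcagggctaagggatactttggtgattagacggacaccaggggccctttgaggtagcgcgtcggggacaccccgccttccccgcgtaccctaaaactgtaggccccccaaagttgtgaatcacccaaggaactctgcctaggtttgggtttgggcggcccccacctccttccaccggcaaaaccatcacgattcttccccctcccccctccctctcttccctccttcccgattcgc
Rorb: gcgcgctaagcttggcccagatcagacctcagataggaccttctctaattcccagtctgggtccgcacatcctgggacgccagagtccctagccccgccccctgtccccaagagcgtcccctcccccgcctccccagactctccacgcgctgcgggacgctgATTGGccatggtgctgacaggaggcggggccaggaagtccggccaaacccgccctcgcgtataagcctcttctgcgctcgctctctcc
Cux2, first start: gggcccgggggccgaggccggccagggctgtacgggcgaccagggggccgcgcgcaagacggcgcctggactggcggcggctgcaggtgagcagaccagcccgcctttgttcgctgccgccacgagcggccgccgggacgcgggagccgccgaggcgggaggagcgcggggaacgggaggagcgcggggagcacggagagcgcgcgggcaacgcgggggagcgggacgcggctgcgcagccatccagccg
Cux2, second start: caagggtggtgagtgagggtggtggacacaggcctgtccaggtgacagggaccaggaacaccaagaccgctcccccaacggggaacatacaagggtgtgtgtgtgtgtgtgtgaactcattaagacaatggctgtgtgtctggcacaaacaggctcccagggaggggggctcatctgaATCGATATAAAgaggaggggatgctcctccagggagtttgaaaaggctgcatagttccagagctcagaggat

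The motifs were those of the families of Tbr1, Foxp2, Sox5, Rorb, Cux1 and Cux2, and 3 common elements. No motif was searched for the families of Fezf2, Bcl11b and Tle4. The SOX core AACAAT lay in 9.42% of all 32851 promoters and in those of Tbr1 and 1 Tle4 start, and the homeodomain core TAATTA in 4.84% of promoters and in that of Tbr1, at 2 places. The CUT core ATCGAT, a rarer motif at 0.728% of promoters, lay in the second Cux2 start, where it overlaps the TATA box TATAAA (12.4% of promoters). The CCAAT box CCAAT (33.8%) lay in the printed Rorb start and 1 Tle4 start, and the forkhead core TGTTTAC (3.17%) in Cux1. A further Rorb start that is not printed, at chr19:19001118-19001367 (minus), held none of the motifs and 4 CpG dinucleotides. The retinoid-related receptor motif AGGTCA, in 4607 of all promoters, and the T-box motif AGGTGTGA, in 368, matched none of the 11 starts in these windows. The first Cux2 start held 40 CpG dinucleotides, more than 98.7% of promoters, and the second held 3. A match is a run of letters and not a site shown to be bound.

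Expression is given as variance-stabilizing transformation (VST) values on a log2 scale, on which a difference of 1 stands for about 2 times the expression where a gene is well expressed. The value of a gene without reads, taken as the floor, was 2.14, and every member lay far above it in every sample. Levels are not compared between genes, because VST values are not corrected for gene length. Chd8 was checked first and was lower in all 6 Chd8 V986*/+ samples than in all 6 WT samples at every age, at 64.6%, 62.7%, 64.2% and 68.8% of the WT level from E14.5 to 12 months (limma, Benjamini-Hochberg adjusted p at most 0.026). At E14.5 it was the only gene called in this fit, whereas 1 fit of all 48 samples called 93 genes, none of them a member. With DESeq2, the paper also reports Usp11 and Wars2 as differing between the genotypes at every age. The number of genes called thus depends on the fit, and a gene that was not called may still differ. The gene lists of the paper are not compared here. Excitatory neuron markers, a list of 6 genes that includes Slc17a7 and Emx1, averaged 9.48 to 10.01 at E14.5 and 12.13 to 12.53 postnatally, with none near the floor. Some samples stood apart. At E14.5, WT replicate 5 had a mean of 7.22 over 21 midbrain, hindbrain and spinal cord markers, against 3.23 to 5.14 in the other WT samples and 3.31 to 4.61 in the Chd8 V986*/+ samples, and at 12 months WT replicate 6 was the lowest of its group in 7 of the 9 members. For some differences between groups, values without these samples are also given, whereas the correlations and SDs include them.

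**Figure D1:**
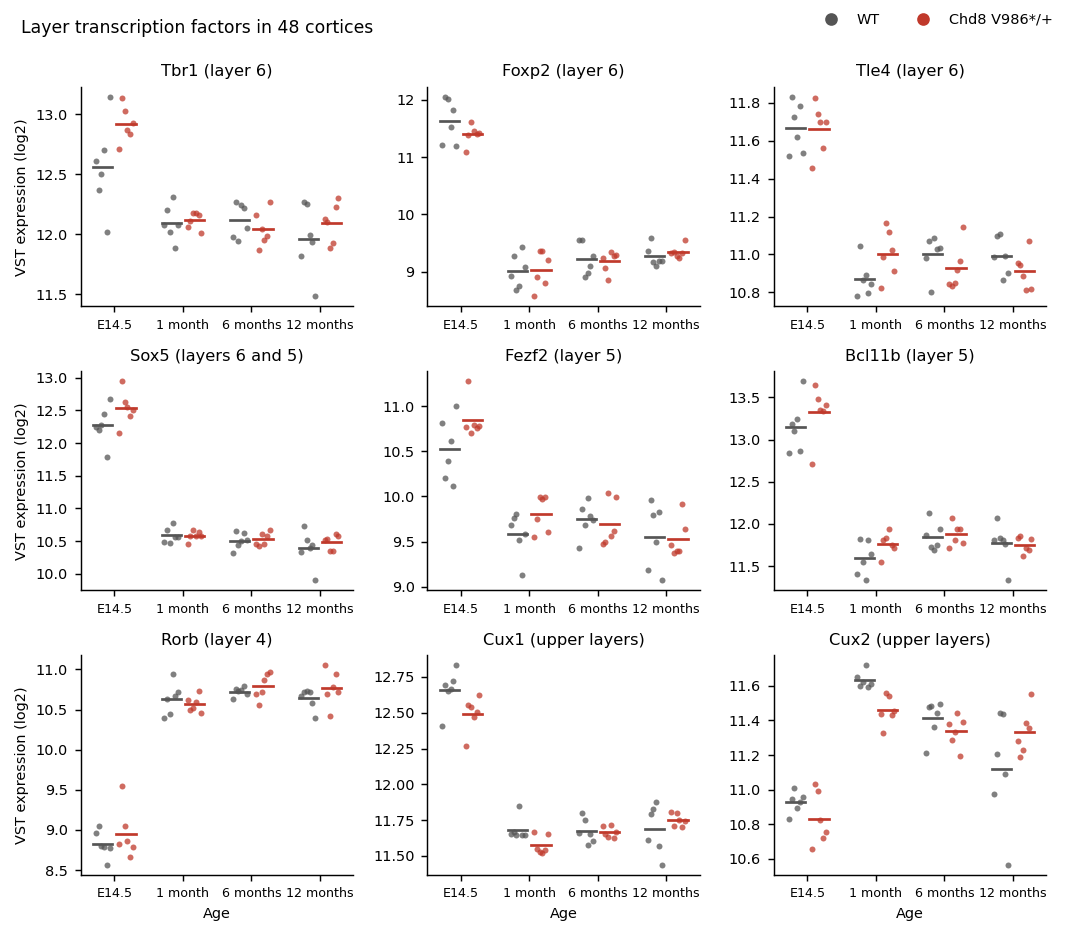
VST expression (log2) of each member in every sample, with WT in grey and Chd8 V986*/+ in red, 6 samples per genotype and age, and a line at each group mean. Most members step down between E14.5 and 1 month, Rorb and Cux2 step up, and the postnatal groups of both genotypes lie close together.

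The first comparison asked how the members changed from the embryonic to the postnatal cortex. All 9 members passed the test (adjusted p below 0.1) between E14.5 and 1 month in both genotypes, with the same 7 lower and the same 2 higher at 1 month. Most genes changed over this period. Of the genes tested, 85.5% passed in WT (41.7% lower and 43.9% higher) and 86.5% in Chd8 V986*/+ mice (42.1% lower and 44.5% higher). The samples of the ages did not overlap for 8 members in WT and for 9 in Chd8 V986*/+ mice, against 68.1% and 69.0% of all genes tested. In bulk cortex, fewer cells of a layer and less RNA per cell cannot be told apart. The members had a median change of −0.94 in WT cortex, against 0.03 over all genes tested, and of −0.92 in Chd8 V986*/+ cortex, against 0.04.

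Among the layer 6 genes, Foxp2, a forkhead repressor of corticothalamic neurons, fell most of all members. In WT cortex its lowest, median and highest values were 11.20, 11.68 and 12.05 at E14.5 and 8.67, 9.01 and 9.42 at 1 month. In Chd8 V986*/+ cortex they were 11.10, 11.41 and 11.61 at E14.5 and 8.57, 9.05 and 9.36 at 1 month. The ages were separated by more than 1.5 log2 units, and Foxp2 at 1 month stood at 16.3% of its E14.5 level in WT and 19.4% in Chd8 V986*/+ mice (log2 changes −2.62, SE 0.15, and −2.37, SE 0.11). The gene spans 540629 bases on chromosome 6 (14851349 to 15391977, plus strand, mm9) and has up to 19 exons.

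Sox5, which keeps deep-layer neurons from taking the subcerebral fate too early, fell to 31.1% of its E14.5 level in WT and to 25.8% in Chd8 V986*/+ mice. Its WT values were 11.78, 12.26 and 12.68 at E14.5 and 10.48, 10.56 and 10.78 at 1 month (lowest, median and highest), and those of Chd8 V986*/+ mice 12.16, 12.53 and 12.95 and then 10.45, 10.58 and 10.67. All 1-month samples were thus more than 1 unit below all E14.5 samples of their genotype. Sox5 has the longest span of the members, 953553 bases on chromosome 6 (143776945 to 144730497, minus strand), within which 5 genes are annotated on the opposite strand; none of these is named in the table.

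Tle4, a Groucho-family corepressor of corticothalamic neurons, changed less. Its WT values were 11.52, 11.67 and 11.83 at E14.5 and 10.78, 10.85 and 11.05 at 1 month, and the Chd8 V986*/+ samples lay between 11.46 and 11.83 and then between 10.82 and 11.16. The fall left 57.5% of the E14.5 level in WT (log2 change −0.80, SE 0.06) and 63.3% in Chd8 V986*/+ mice (−0.66, SE 0.07). Tle4 lies on chromosome 19 (14522562 to 14672473, minus strand) with up to 20 exons.

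Tbr1, the T-box factor of early-born layer 6 neurons, had the smallest fall in WT and the only overlap, while in Chd8 V986*/+ mice the fall of Tle4 was the smallest. In WT cortex it ranged from 12.02 over a median of 12.56 to 13.14 at E14.5 and from 11.89 over 12.07 to 12.31 at 1 month, and only 2 of the 6 samples at 1 month lay below all E14.5 samples. In Chd8 V986*/+ cortex the values were 12.71, 12.90 and 13.13 and then 12.01, 12.13 and 12.18, without overlap. Its 1-month level was 72.4% of that at E14.5 in WT (log2 change −0.47, SE 0.13, adjusted p = 0.0025) and 57.4% in Chd8 V986*/+ mice (−0.80, SE 0.07). The WT change was −0.57 without WT replicate 5 of E14.5, which had the lowest Tbr1 of its group, and −0.73 with quantile normalization between samples. This short gene spans 11185 bases with 6 exons on chromosome 2 (61640987 to 61652171, plus strand).

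Both layer 5 genes fell in both genotypes. Bcl11b, the zinc-finger factor also called Ctip2 that subcerebral neurons need for their axons, went from 12.84, 13.14 and 13.69 at E14.5 to 11.33, 11.59 and 11.82 at 1 month in WT, and from 12.71, 13.38 and 13.64 to 11.55, 11.78 and 11.94 in Chd8 V986*/+ mice. The fall was −1.56 in each genotype (SE 0.12 and 0.10), to 33.9% and 34.0% of the E14.5 level. Fezf2, the zinc-finger factor that specifies subcerebral neurons, fell to 52.0% in WT and 48.8% in Chd8 V986*/+ mice. Its WT values were 10.12, 10.50 and 11.01 at E14.5 and 9.13, 9.63 and 9.81 at 1 month, and all 12 samples kept the ages apart. Bcl11b lies on chromosome 12 (109148613 to 109241812, minus strand), with up to 4 exons, and Fezf2 on chromosome 14 (13174406 to 13178379, minus strand), where its 3974 bases are the shortest span of the members.

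Rorb, the retinoid-related orphan receptor of layer 4, rose. Its values in WT were 8.57, 8.80 and 9.05 at E14.5 and 10.40, 10.65 and 10.94 at 1 month. In Chd8 V986*/+ mice they were 8.67, 8.84 and 9.54 and then 10.46, 10.56 and 10.74, so that no sample of 1 age reached the other. The rise was 3.51-fold in WT (log2 change 1.81, SE 0.08) and 3.06-fold in Chd8 V986*/+ mice (1.61, SE 0.11). Rorb lies on chromosome 19 (19005095 to 19185686, minus strand) and has up to 11 exons.

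The related CUT homeodomain genes Cux1 and Cux2 moved in opposite directions. Cux1 fell from 12.66 ± 0.14 to 11.68 ± 0.08 in WT and from 12.49 ± 0.12 to 11.58 ± 0.07 in Chd8 V986*/+ mice (SD, n = 6 each), to 50.8% and 52.9% of the E14.5 level. Cux2 rose from 10.93 ± 0.06 to 11.63 ± 0.05 in WT and from 10.83 ± 0.15 to 11.46 ± 0.09 in Chd8 V986*/+ mice (SD, n = 6 each), a 1.63-fold and a 1.55-fold increase. Both lie on the minus strand of chromosome 5, Cux1 at 136724005 to 137043301 with up to 24 exons and Cux2 at 122308396 to 122500111 with up to 23. GENCODE also gives the name Cux2 to a pseudogene of 416 bases inside the Cux2 locus (122308562 to 122308977), and reads of the gene and of the pseudogene were not separated here.

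**Figure D2:**
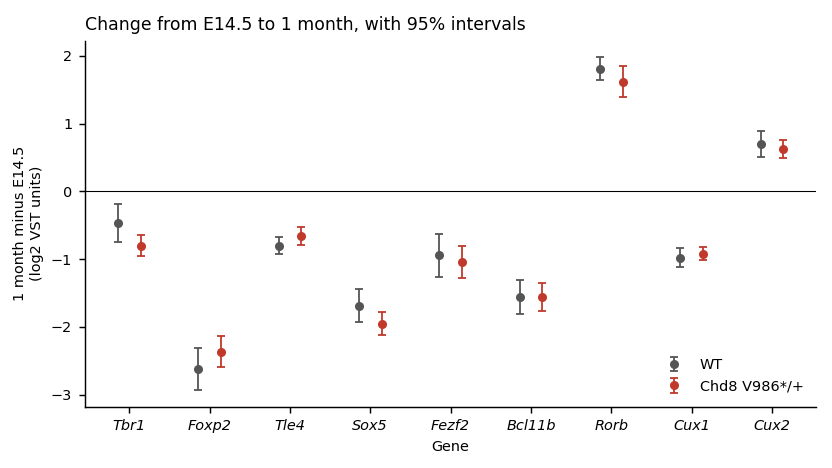
Log2 change from E14.5 to 1 month for each member, with WT in grey and Chd8 V986*/+ in red, and 95% intervals from the limma fit. The 7 members below 0 range from −0.47 (Tbr1, WT) to −2.62 (Foxp2, WT), and Rorb and Cux2 lie above 0 in both genotypes.

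Other layer genes that passed the test in the same period were counted by direction. Over all genes tested, 43.9% passed as higher and 41.7% as lower in WT, and 44.5% and 42.1% in Chd8 V986*/+ mice. Of 25 further layer and projection-neuron transcription factors, 10 rose and 13 fell in WT, and 8 rose and 14 fell in Chd8 V986*/+ mice. Their median changes were −0.33 and −0.68. Among 18 layer markers that are not transcription factors, 14 rose and 2 fell in each genotype, with median changes of 1.93 and 2.04.

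After 1 month, each step was smaller than that from E14.5 to 1 month in every member. None of the 9 passed the limma test from 1 to 6 months, where 14.8% of all genes tested did in WT and 21.8% in Chd8 V986*/+ mice. From 6 to 12 months, where 0.0115% and 1.88% of genes passed, the count was also 0. With 9 members, counts of 0 are near these shares and do not set the members apart from other genes. At an unadjusted p below 0.05, 3 members were counted from 1 to 6 months in WT, where 23.6% of all genes tested were, and 1 from 6 to 12 months in WT, against 7.40% of genes. In Chd8 V986*/+ mice none was counted over either step, against 28.9% and 13.3% of genes. These fits shared the spread over all ages of a genotype. With the samples of the 2 ages alone, 2 members passed from 1 to 6 months in WT (Cux2 lower, Bcl11b higher; background 24.6%) and 3 in Chd8 V986*/+ mice (Rorb and Cux1 higher, Cux2 lower; background 26.8%).

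Cux2 had the widest postnatal course in WT, where its mean was lower at each later age. The lowest, median and highest WT values were 11.59, 11.62 and 11.72 at 1 month. They were 11.21, 11.46 and 11.49 at 6 months, and they reached 10.57, 11.15 and 11.44 in the oldest mice. All 6 samples of 6 months lay below all of 1 month, which was seen in 4.73% of the genes tested (8.43% with the opposite direction), and 4 of the 6 samples of 12 months lay below all of 6 months. The steps were −0.22 (SE 0.09, adjusted p = 0.15; 0.0038 with the samples of the 2 ages alone) and −0.29 (SE 0.09, unadjusted p = 0.0047, adjusted p = 0.58, limma). Without replicate 6 of 12 months, the lowest sample, the second step was −0.18. In Chd8 V986*/+ mice the means were 11.46 ± 0.09, 11.34 ± 0.09 and 11.33 ± 0.13 (SD, n = 6 each), with overlap between neighbouring ages.

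In the other members, the 3 postnatal means of a genotype spanned between 0.01 (Cux1, WT) and 0.32 (Foxp2, Chd8 V986*/+) log2 units. For Tbr1, Sox5 and Foxp2 this span was below the largest SD of the groups in both genotypes. The E14.5 mean was the highest of the 4 ages for Tbr1, Foxp2, Tle4, Sox5, Fezf2, Bcl11b and Cux1 in both genotypes and the lowest for Rorb and Cux2. The difference between E14.5 and the postnatal samples made up 93.7% of the variance of Foxp2 over the 48 samples, 94.7% of that of Sox5 and 94.7% of that of Rorb. The share was 64.5% for Tbr1 and 56.0% for Cux2, in which 15.1% lay between postnatal ages. Differences between genotypes within an age, pooled over the 4 ages, held at most 7.35% of the variance of a member (Tbr1), and at least 0.384% (Foxp2).

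The second comparison asked whether the members differed between genotypes at any age. None of the 9 was called at E14.5, 1 month, 6 months or 12 months, in comparisons that called 0.00593%, 0.139%, 0.0927% and 0.0463% of the genes tested. At an unadjusted p below 0.05 with limma, 3 members were counted at E14.5, 5 at 1 month and none at 6 and 12 months. The background of that count was 4.56%, 8.80%, 7.59% and 11.6% of the genes tested. A p above the threshold does not show equal levels, and the 95% intervals give what remained possible. Their widest bounds over the 4 ages reached from 68.0% of the WT level (Foxp2, E14.5) to 158.3% (Tbr1, E14.5). At 6 months, all 9 intervals lay between 81.9% and 114.7% of the WT level.

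At E14.5, the estimates for Tbr1, Sox5, Fezf2, Bcl11b and Rorb were above 0 in Chd8 V986*/+ samples and those for Foxp2, Tle4, Cux1 and Cux2 below 0, and none was called. Tbr1 was 0.36 higher (SE 0.14, 95% interval 0.05 to 0.66, adjusted p = 0.98), and the lowest Chd8 V986*/+ sample, at 12.71, was above 5 of the 6 WT samples, which spread from 12.02 to 13.14. The differences of Bcl11b, Rorb, Cux2 and Foxp2 were 0.17, 0.13, −0.10 and −0.24, with SE between 0.07 and 0.16, and that of Tle4 was −0.01 (SE 0.07). Single samples moved some of these values, as Rorb differed by 0.01 without Chd8 V986*/+ replicate 2, Foxp2 by −0.16 without WT replicate 2, and Bcl11b by 0.10 to 0.29 when 1 sample was left out in turn. Fezf2 was 0.32 higher (SE 0.14, unadjusted p = 0.041, limma) and Sox5 0.26 higher (SE 0.14), while Cux1 was 0.17 lower (SE 0.07, unadjusted p = 0.039, limma). The Chd8 V986*/+ samples of Fezf2 lay between 10.71 and 11.27 and the WT samples between 10.12 and 11.01, so the genotypes overlapped.

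Markers of other brain regions moved with these values. All 17 of the midbrain, hindbrain and spinal cord markers that were tested had lower values in Chd8 V986*/+ than in WT samples at E14.5 (differences from −2.17 to −0.33), none of them called. Their mean level ranged from 3.23 to 7.22 in WT and from 3.31 to 4.61 in Chd8 V986*/+ samples. Of the 21, 11 were near the floor in Chd8 V986*/+ samples, all of them Hox genes, against 2 in WT (Hoxc5 and Hoxd4). Any of those 11 that were tested passed the filter, a mean over the 12 samples, only through their WT values. For them the lower direction was fixed by the filter, so the count of 17 is no test. Thalamus and habenula markers, a list of 8 genes, averaged 9.51 to 10.34 in WT, with replicate 5 the highest, and 9.41 to 9.89 in Chd8 V986*/+ samples, with 6 of 8 lower, none called and none near the floor. The part of either marker list in these differences was not tested beyond the values that follow. Within groups, Fezf2, Tbr1 and Sox5 were lower in samples with more of the midbrain, hindbrain and spinal cord markers (r = −0.83, −0.79 and −0.64 over 12 samples, for deviations from the group mean), and Foxp2 was higher (r = 0.69). These correlations include WT replicate 5 and were not computed without it. This sample deviated by 2.39 in the marker mean and by −0.40, −0.54 and −0.49 in Fezf2, Tbr1 and Sox5. Fitted with the mean of these markers, the difference was 0.13 for Tbr1, 0.08 for Fezf2, 0.08 for Sox5 and −0.03 for Foxp2, and without WT replicate 5 it was 0.25, 0.24 and 0.17 for the first 3. For Cux1 the fit with the markers gave −0.15. The marker mean averaged 4.82 in WT and 3.77 in Chd8 V986*/+ samples, so these fits do not separate the markers from genotype. Of 25 further layer transcription factors, 20 had higher values in Chd8 V986*/+ samples, none called, with a median difference of 0.12. Mef2c was 0.40 higher (SE 0.17) and Neurod6 0.38 higher (SE 0.18), the largest differences among them. Of 6 excitatory neuron markers, 5 had higher values, with a median difference of 0.19, none called.

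**Figure D3:**
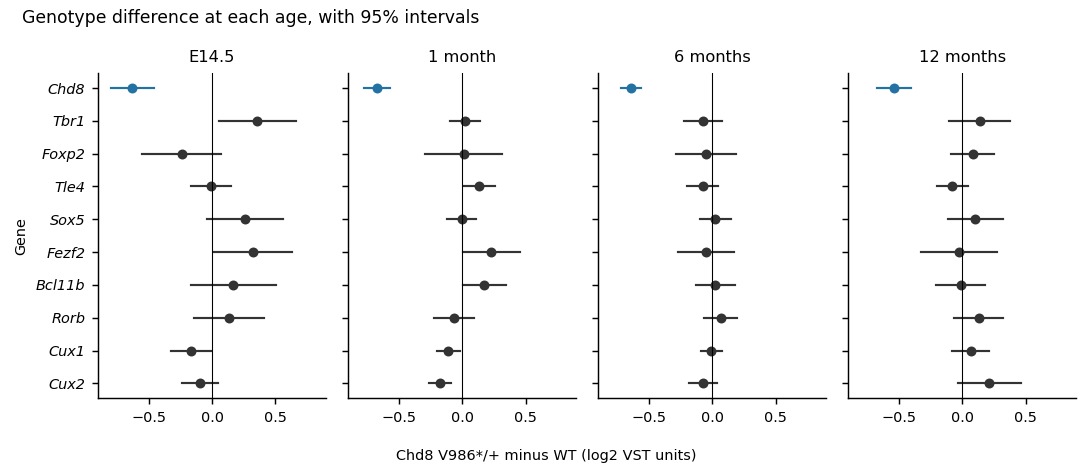
Difference of Chd8 V986*/+ minus WT in log2 VST units at each age, for Chd8 in blue and the 9 members in black, with points at the estimate and lines for 95% intervals. Chd8 lies between −0.67 and −0.54 at the 4 ages, and the members lie between −0.24 (Foxp2, E14.5) and 0.36 (Tbr1, E14.5).

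At 1 month, Cux2 was the member nearest to a call. Its 6 WT samples were at 11.65, 11.60, 11.62, 11.72, 11.59 and 11.61, and its 6 Chd8 V986*/+ samples at 11.44, 11.32, 11.56, 11.54, 11.43 and 11.45. Every Chd8 V986*/+ sample was below every WT sample, which held for 0.441% of the genes tested, or 0.825% with the opposite direction. Cux2 stood at 88.7% of the WT level (log2 difference −0.17, SE 0.04, 95% interval −0.26 to −0.09, unadjusted p = 0.00055, limma adjusted p = 0.16). The adjusted p lay between 0.13 and 0.34 when 1 sample was left out in turn and between 0.15 and 0.73 in the other alternatives, with the highest in 1 fit of all 48 samples.

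Cux1 was also lower at 1 month, by 0.11 (SE 0.04), with 4 Chd8 V986*/+ samples below all WT samples, whereas Fezf2 was 0.23 higher (SE 0.11, or 0.14 without WT replicate 5), Bcl11b 0.17 higher (SE 0.08) and Tle4 0.13 higher (SE 0.06). The adjusted p of these 4 lay between 0.47 and 0.56. Tbr1, Sox5 and Foxp2 differed by 0.02, −0.01 and 0.01. All 10 striatal markers had higher values in Chd8 V986*/+ samples at this age (median 0.32, none called). With the striatal mean as a covariate, the differences were 0.08 for Bcl11b, −0.16 for Foxp2 and −0.17 for Cux2. The striatal mean itself averaged 9.95 in WT and 10.30 in Chd8 V986*/+ samples, so the fit does not separate it from genotype. Its part in these differences was not tested.

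Differences at 6 months were between −0.08 (Cux2) and 0.07 (Rorb), and those at 12 months between −0.08 (Tle4) and 0.21 (Cux2). At 12 months Cux2 had a mean of 11.12 ± 0.33 in WT and 11.33 ± 0.13 in Chd8 V986*/+ mice (SD, n = 6 each; SE of the difference 0.12). Without WT replicate 6, the differences at 12 months were 0.10 for Cux2, 0.04 for Tbr1 and 0.0042 for Sox5, against 0.21, 0.14 and 0.10 with it. All 10 striatal markers were lower in Chd8 V986*/+ samples at 12 months (median −0.32, none called). The largest genotype differences among the further layer genes were those of Syt6 (0.26, SE 0.13) and Nr4a2 (0.22, SE 0.10) at 1 month, Nxph4 (0.27, SE 0.17) and Calb1 (0.18, SE 0.05) at 6 months, and Ntsr1 (0.38, SE 0.16) and Kcnh5 (0.33, SE 0.13) at 12 months. None of these 43 genes was called at any age.

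The third comparison tested whether the genotype difference at 12 months departed from that at each younger age. No member was called, in tests that called 0.0635% (against E14.5), 0.00578% (1 month) and 0.0578% (6 months) of genes. The counts at an unadjusted p below 0.05 were 2, 3 and 1 members, against 11.5%, 11.1% and 8.68% of all genes tested. Cux2 had the lowest p of the members against 1 month, where the difference changed from −0.17 to 0.21, a change of 0.39 (SE 0.12, unadjusted p = 0.0019, limma adjusted p = 0.21), or 0.28 without WT replicate 6 of 12 months. Cux1 changed by 0.23 between E14.5 and 12 months (SE 0.08, unadjusted p = 0.0076, limma adjusted p = 0.27).

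Mice of 1 group differed from each other in several members at once. Over deviations from the group mean, 30 of the 36 pairs of members were positively correlated among the 12 samples of E14.5 and 33 of 36 among the 36 postnatal samples, with median r of 0.42 and 0.37. Each sample is 1 library and all were normalized together, so these values are descriptions with no test. Tbr1 and Sox5 went together most closely (r = 0.92 at E14.5 and 0.86 postnatally), followed at E14.5 by Tbr1 with Fezf2 (0.85, and 0.72 postnatally) and Sox5 with Bcl11b (0.85, and 0.50 postnatally). Cux1 and Cux2 were correlated at 0.50 and 0.67, and Foxp2 and Tle4 at 0.81 and 0.42. At E14.5, Foxp2 went against Fezf2 (r = −0.72) and Tbr1 (r = −0.48). Excitatory neuron markers tracked Fezf2 (r = 0.92 at E14.5 and 0.70 postnatally) and Tbr1 (0.82 and 0.77).

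Foxp2 followed the striatal markers postnatally. Their mean over 10 genes ranged from 9.11 to 10.88 over the 36 postnatal samples, with none near the floor, and its deviations correlated with those of Foxp2 at r = 0.75 and of Bcl11b at r = 0.54. The sample with the lowest Foxp2 was also the lowest in the striatal mean in WT at 1, 6 and 12 months and in Chd8 V986*/+ mice at 6 months. For Fezf2 the correlation was −0.45, and for Tbr1, Tle4, Sox5, Rorb, Cux1 and Cux2 it lay between −0.17 and 0.09. The part of striatal tissue in the dissection was not tested.

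**Figure D4:**
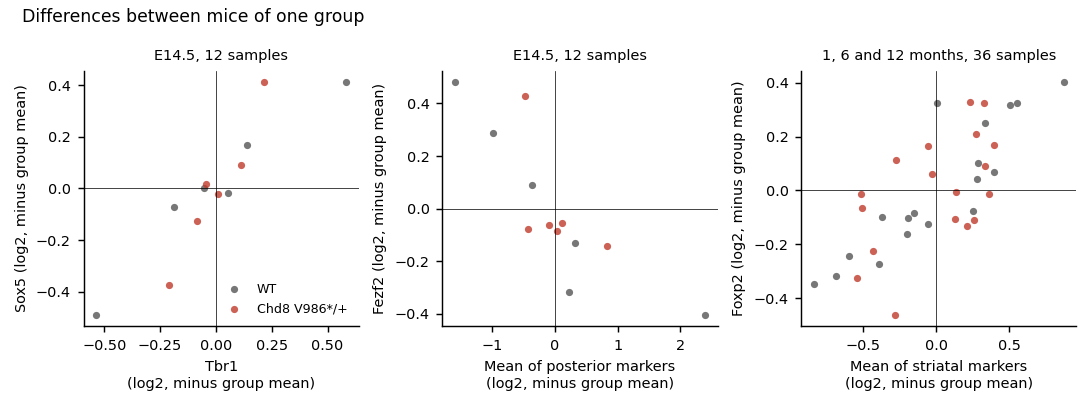
Deviation of each sample from its group mean (log2), for Sox5 against Tbr1 and for Fezf2 against the mean of midbrain, hindbrain and spinal cord markers at E14.5 (12 samples each) and for Foxp2 against the mean of striatal markers at 1, 6 and 12 months (36 samples), with WT in grey and Chd8 V986*/+ in red. The correlations are 0.92, −0.83 and 0.75, and 1 WT sample of E14.5, included in both E14.5 values, lies far to the right in the middle panel.

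The spread between mice was wide for some members when set against genes of similar level. In WT at E14.5, the SD of Tbr1, Foxp2 and Fezf2 (0.37, 0.38 and 0.35) exceeded that of 98.0%, 98.0% and 97.2% of genes within 0.5 log2 units of their mean. This group includes WT replicate 5, its lowest sample in Tbr1 and Fezf2. In Chd8 V986*/+ samples of E14.5 the SDs were 0.15, 0.17 and 0.21, above 56.3%, 71.4% and 86.0% of such genes. Cux2 was among the least variable genes of its level in WT at E14.5 (SD 0.06, above 12.0% of such genes). In the Chd8 V986*/+ groups, Cux1 had an SD of 0.04 at 6 months and 0.04 at 12 months, above 9.13% and 11.9% of such genes.

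The genes most like each member over the 48 samples were named by Pearson correlation among 17302 genes, a likeness set mainly by the step between E14.5 and the postnatal ages. For the layer 6 genes they were Nfix, Neurod2 and Tcf4 (r = 0.94, 0.93 and 0.91 with Tbr1), Ebf1, Zfhx3 and Zfp503 (0.98 each with Foxp2), Elavl2, Soga3 and Gng2 (0.96 each with Tle4), and Nfib and Bcl11a (0.99 each with Sox5). For layer 5, Fezf2 was most like Neurod2, Neurod6 and Cul1 (0.97, 0.95 and 0.92) and Bcl11b most like Lhx6, Auts2 and Numa1 (0.98, 0.98 and 0.97). Rorb was most like Prkce, Kcnj3 and Camk1d (0.99, 0.99 and 0.98), and Cux1 like Acvr2b, Bahcc1 and Apc2 (0.98 each). Cux2 had the weakest likeness, to Brsk2, Grik5 and Sidt2 (0.92, 0.91 and 0.91). Among the members themselves, Sox5 and Bcl11b were the closest pair (r = 0.97). Rorb and Cux2 were each other's closest member (r = 0.76).

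Genes chosen for their likeness to members that fell had to fall as well, so the values of 3 of them are given as a description. From E14.5 to 1 month, Nfib, a nuclear factor I gene, had a log2 change of −2.29 in WT (SE 0.09) and −2.55 in Chd8 V986*/+ mice (SE 0.08). Neurod2, a basic helix-loop-helix factor of projection neurons, changed by −0.95 (SE 0.15) and −1.26 (SE 0.09). Lhx6, a LIM homeobox factor of interneurons from the ganglionic eminence, changed by −1.35 (SE 0.09) and −1.54 (SE 0.07).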

How the data were processed

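RNA-seq of cortex from 24 WT and 24 Chd8 V986*/+ mice was analysed from 1 table of 24444 genes. Per the labels, the submitters' processing notes name STAR 2.5.2b, Salmon 0.11.3, DESeq2 and DESeq 1.22.2, with mm9. The authors deposited log2 values from a variance-stabilizing transformation, after correction of batch effects that the text of the paper does not name. For each gene the mean of replicates 1 to 3 matched that of replicates 4 to 6, with a largest gap of 3.2e-14. Library preparation is given as stranded (KAPA) in the methods and as TruSeq v2 in the labels. The table holds no read counts and the study's read depths were not used here, so no counting error is given. The SD between 6 samples is taken as the precision of each value. It leaves out any common difference between replicates 1 to 3 and 4 to 6, whose means are equal. The main fits had no term for this, so SEs and p-values may be too small. The labels do not say which embryos were littermates, so p-values measure the spread between these samples.

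Samples were grouped by the genotype and age in their labels. Differences were tested with limma 3.58.1 in R 4.3.3, with a mean-variance trend, over genes averaging 0.5 or more above the floor (2.1433, the most frequent value, 15.7% of all values). Genotypes were compared at each age with its 12 samples, ages within a genotype with its 24 samples, and genotype differences between ages with all 48. Genes with a Benjamini-Hochberg adjusted p below 0.1 over all genes tested were called. Intervals are 95% intervals of the limma fit. All 9 members passed the filter in each of the 13 comparisons. The fits were tested on simulated data.

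The members and the gene lists were chosen with earlier results of these data known. Besides the members, the text names Chd8, the 3 genes most correlated with each member (1 of those for Sox5 is not reported here), and the 2 further layer genes with the largest genotype difference at each age; at E14.5 these were transcription factors. Nfib, Neurod2 and Lhx6 were picked from the most correlated genes after their values were seen. Same-numbered samples of the genotypes were not treated as pairs. The rule used was a correlation of their deviations below 0.1 for at least 1 pair, which was met at every age. Because this rule takes the lowest of 6 pairs, it cannot exclude pairing. Alternatives were other filters, variance priors, scalings, samples in the fit, a replicate block, the set of replicates, a threshold of 0.05, marker means as covariates, and leaving out each sample. Leaving out WT replicate 5 of E14.5 and WT replicate 6 of 12 months from the age comparisons was chosen after seeing the data. Gene positions are from GENCODE (mm9), and promoter sequences are from RefSeq (GRCm38.p6). Python 3.11.15, numpy 2.4.6, pandas 2.3.3 and matplotlib 3.10.9 were used. Read counts were not used here.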

Additional observations from a re-analysis of the deposited data

Results flagged for a closer look

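A single sample stood far from the other 5 of its group in 5 of the 72 combinations of member and group tested (Dixon's test at the 95% level, which chance alone passes in about 1 of 20 groups). Foxp2 in Chd8 V986*/+ replicate 6 at 12 months was 9.56, above the other samples at 9.24 to 9.34. Tle4 in WT replicate 3 at 6 months was 10.80, below the others at 10.98 to 11.09. Fezf2 in Chd8 V986*/+ replicate 2 at E14.5 was 11.27, above the others at 10.71 to 10.79, and this sample was the highest of its group in 7 of the 9 members. Bcl11b in Chd8 V986*/+ replicate 1 at E14.5 was 12.71, below the others at 13.35 to 13.64, and this sample was the lowest in 7 members. Cux1 in WT replicate 4 at 1 month was 11.85, above the others at 11.64 to 11.67.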

How the results depend on the processing

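The calls of the members were steady: 0 of 9 in every genotype comparison and difference of genotype differences, and 9 of 9 from E14.5 to 1 month in both genotypes, under each alternative run. The exceptions were from 1 to 6 months with the samples of the 2 ages alone, where 2 members were called in WT (Cux2 −0.22, adjusted p = 0.0038, and Bcl11b 0.26, 0.0501) and 3 in Chd8 V986*/+ mice (Rorb 0.22, 0.028; Cux1 0.09, 0.079; Cux2 −0.12, 0.079). Quantile normalization moved the median change of all genes from E14.5 to 1 month from 0.03 to −0.09 in WT and from 0.04 to −0.09 in Chd8 V986*/+ mice, and kept the direction of all 9 members. No source says that a replicate number marks a shared mouse or litter, and same-numbered samples were not treated as pairs. Their mean correlation was 0.019, 0.046 and −0.034 at 1, 6 and 12 months. At E14.5 it was 0.23, with 4 of 6 samples closest to their own number, a hint from the data that does not exclude pairing at that age. The replicate block changed no call of a member.

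Counts of all genes called were less steady. At E14.5 the count was 1, the gene Chd8, and became 3 without a filter, 2 with the filter at 1.5, quantile normalization, the replicate block, the replicate set or the striatal mean as a covariate, 0 without a trend or with the posterior marker mean as a covariate, and 93 in 1 fit of all 48 samples. The counts of 0 are a loss of the Chd8 call, which was also lost without WT replicate 2, 4 or 5 or Chd8 V986*/+ replicate 4. At 1 month it was 24, and 13 with the replicate block or the striatal mean, 15 at the threshold of 0.05 and 37 in the fit of 48. At 6 months it was 16, and 4 without a trend or with the posterior marker mean, 30 with the block and 5 at 0.05. At 12 months it was 8, and 2 with the block or either marker mean, 3 at 0.05 and 520 in the fit of 48. Leaving out 1 sample gave 0 to 2, 3 to 32, 5 to 21 and 2 to 251 genes at the 4 ages, with 3 genes at 1 month without Chd8 V986*/+ replicate 5 and 251 at 12 months without WT replicate 3. With ages, the count in WT from 1 to 6 months (2562) was 1683 at 0.05 and 4242 with the 2 ages alone. From 6 to 12 months it was 2 in WT, and 1 without a trend, with quantile normalization, centring, the 2 ages alone or without WT replicate 6, and 0 with the block or at 0.05. In Chd8 V986*/+ mice from 6 to 12 months it was 325, and 153 at 0.05 and 592 with the 2 ages alone. Of the differences between 12 months and E14.5, 11 genes were called, and 24 with the filter at 1.5, 4 at 0.05, 0 with the 2 ages alone, and 0 to 3 without 1 of the samples that stood apart. Against 1 month it was 1, and 5 without a filter, 4 with the filter at 1.5, 3 without a trend, 0 with quantile normalization or the 2 ages alone, and 17 with centring. Against 6 months it was 10, and 6 with the block, at 0.05 or without WT replicate 6, and 2 with the 2 ages alone. The split of higher to lower genes was 9 to 7 at 6 months and 9 to 11 with centring, 0 to 1 at E14.5 and 1 to 1 with quantile normalization, and 0 to 1 against 1 month and 3 to 14 with centring.

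Differences of members that were not called changed sign where they lay near 0. With quantile normalization these were Tle4 at E14.5 (0.0069), from 6 to 12 months (0.019 in WT, 0.026 in Chd8 V986*/+ mice) and at 12 against 6 months (0.0066), and Rorb (0.012) and Cux2 (0.036) from 6 to 12 months in Chd8 V986*/+ mice. With centring they were Sox5 at 1 month (0.0064) and Cux1 from 1 to 6 months in WT (0.0012). With the posterior marker mean they were Tle4 at E14.5 (0.071), Foxp2 and Sox5 at 1 month (−0.028 and 0.018) and Sox5 at 6 months (−0.0019), and with the striatal mean Foxp2 at 1 month (−0.16). Without 1 sample, the signs also changed for Tle4 at E14.5 (−0.039 to 0.035), for Foxp2 (−0.059 to 0.10), Sox5 (−0.027 to 0.034) and Tbr1 (−0.019 to 0.065) at 1 month, for Bcl11b (−0.014 to 0.080), Cux1 (−0.026 to 0.019), Foxp2 (−0.11 to 0.015) and Sox5 (−0.013 to 0.055) at 6 months, and for Bcl11b (−0.10 to 0.047) and Fezf2 (−0.12 to 0.057) at 12 months. Without WT replicate 6, Bcl11b and Tle4 changed sign from 6 to 12 months in WT (0.0063 and 0.011), as did Fezf2 (−0.071) and Sox5 (−0.021) at 12 against 6 months. Rorb at 12 months against E14.5 went from −0.050 to 0.049 without 1 of the samples that stood apart. The cause of these changes was not tested.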
